A study of Mus musculus with 6 samples.

Results

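Ptprn and 9 further genes of dense-core vesicles, 10 genes in all, were followed through RNA-seq libraries from mice aged 8 weeks, made from the vermis, the strip of cerebellum along the midline. They were taken by symbol from a table of 21927 rows, and all 10 were present and passed the filter on low values (a mean of at least 10 normalized counts). There were 3 libraries of LINE-1a mice, which the study describes as having the retrotransposon LINE-1 (L1) activated, and 3 of dCas mice, its controls, with 1 library per sample. The sources used here do not give the construct, its promoter, the cells that carry it, the genetic background or the litters of the animals. Ptprn was chosen by its normalized counts in these same libraries, being among the genes past the threshold between LINE-1a and dCas, and the other 9 genes were added to it by function. Every value of this contrast is therefore a description and supports nothing.

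Dense-core vesicles store neuropeptides, hormones and trophic factors and release them on calcium entry. Granins (Chga, Chgb, Scg2, Scg3) pack and help to sort the cargo, the convertases Pcsk1 and Pcsk2 cut prohormones at pairs of basic residues, Scg5 (7B2) keeps Pcsk2 inactive and stable on its way through the cell, and the carboxypeptidase Cpe trims the basic residues that the cuts leave. Ptprn (IA-2) and Ptprn2 (phogrin, IA-2β) span the vesicle membrane. They belong to the receptor-type protein tyrosine phosphatases by sequence but have little or no activity on phosphotyrosine, and both are known as autoantigens of type 1 diabetes. In the mouse, loss of both has been linked to smaller stores of vesicle cargo.

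Values are normalized counts, reads per gene divided by a size factor of the library. The libraries held 23483158 to 33445789 reads in the gene table, and the 10 genes took 0.213% to 0.269% of the summed normalized counts in LINE-1a libraries and 0.253% to 0.262% in dCas libraries. By the Y-linked genes Ddx3y, Uty, Kdm5d and Eif2s3y, LINE-1a 1 and LINE-1a 2 came from females and the other 4 libraries from males, so group and sex are partly confounded. LINE-1a 2 had the fewest reads and the most distant score on principal component 1, which held 46.6% of the variance. In the table of repeats, the young L1 subfamily L1MdTf_I was 357, 529.9 and 516 in LINE-1a 1, 2 and 3, against 386, 348 and 304 in dCas 1, 2 and 3, so the groups overlapped through LINE-1a 1. L1MdTf_II ran the same way, at 405, 606 and 565 in LINE-1a libraries, against 423, 381 and 337 in dCas libraries. So did L1MdA_I, at 382, 567 and 552 in LINE-1a libraries, against 415, 374 and 328 in dCas libraries. The more abundant L1MdTf_III ran the other way, at 9368, 5772 and 6157 in LINE-1a libraries, against 8243, 10013 and 10967 in dCas libraries. It again overlapped through LINE-1a 1. Purkinje cell markers summed to 90293 to 117657 in LINE-1a and 132358 to 156255 in dCas libraries, and granule cell markers to 86035 to 97082 in LINE-1a and 94282 to 112844 in dCas libraries, so defining markers of the labelled tissue were present in all 6. Choroid plexus markers, a tissue next to the vermis, varied most, from 2013 to 108796 in LINE-1a and from 1487 to 86964 in dCas libraries. Pituitary and endocrine markers, another possible source of vesicle genes, summed to at most 130 in LINE-1a and 105 in dCas libraries, with Prl, the prolactin gene, at 0 in 5 of 6 libraries.

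Ptprn was the one gene of the 10 past an adjusted p of 0.05 in limma over all 15800 features tested, of which 23 (0.146%) passed, 21 higher (0.133%) and 2 lower (0.0127%). It stood at 5583, 3693 and 4783 normalized counts in LINE-1a 1, 2 and 3, against 1275, 1703 and 1425 in dCas 1, 2 and 3. Every LINE-1a library lay above every dCas library. The means were 4687 ± 949 in LINE-1a and 1467 ± 217 in dCas vermis (SD, n = 3 each), a ratio of 3.19 and a log2 fold change of 1.66 ± 0.19 (SE; limma adjusted p = 0.00789) on the scale of log2(normalized count + 1), on which all log2 values here are given. The value rested on 4579 to 6915 reads per LINE-1a library and 1654 to 2314 per dCas library. LINE-1a 3, the male of its group, was within the range of the females and above all 3 dCas males. The call was lost with sex as a covariate, at a log2 fold change of 1.71 (limma adjusted p = 0.290), and without LINE-1a 3, at 1.64 (limma adjusted p = 0.0774), and it was kept without LINE-1a 2, at 1.83. Choroid plexus markers summed to 2013, 36484 and 108796 in LINE-1a 1, 2 and 3, against 86964, 1613 and 1487 in dCas 1, 2 and 3, and their part in the Ptprn values was not tested.

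**Figure D1:**
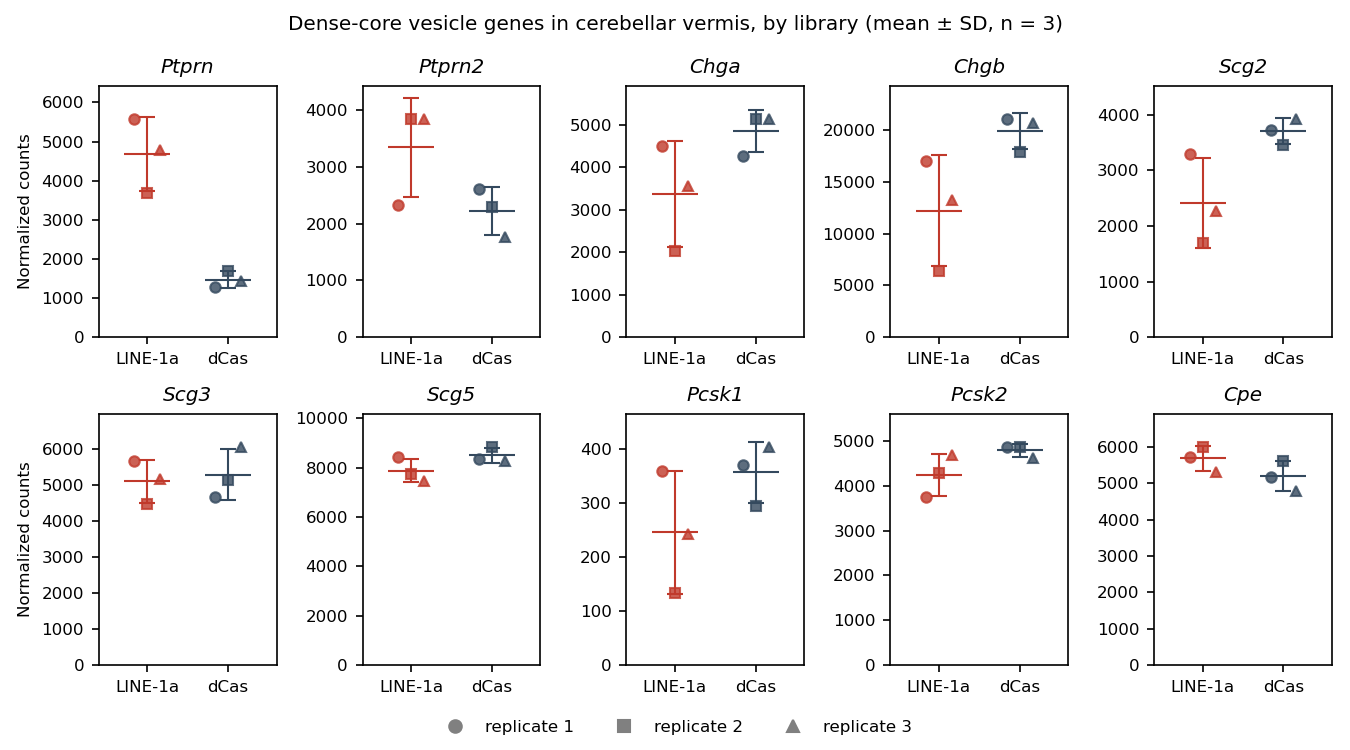
Normalized counts of the 10 dense-core vesicle genes, one panel per gene, with LINE-1a libraries in red on the left and dCas libraries in dark blue on the right; symbols mark the replicate, horizontal bars the mean and whiskers the SD (n = 3). Ptprn lies at 3693 to 5583 in LINE-1a and 1275 to 1703 in dCas libraries, while Chga, Chgb, Scg2 and Pcsk1 are lowest in LINE-1a 2, the square on the left.

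Ptprn is on chromosome 1 (GRCm38, chr1:75247027-75264502, minus strand, protein-coding). Of the 23 features past the threshold, 5 lie on this chromosome (21.7%), where 909 of 15213 tested genes with a position lie (5.98%). The 5 include Ptprn itself, by which the chromosome was picked. The nearest of the others, Hdac4, a class IIa histone deacetylase, starts 16.9 Mb from Ptprn and the farthest 58.9 Mb. They include both features called lower. Closer by, 19 genes of the table start within 200 kb of Ptprn, and of the 17 tested, limma, edgeR and DESeq2 each called 0, with 3 at an unadjusted p under 0.05 in each tool (Stk16, Tuba4a and Resp18), where limma put 15.3% of all features. Their median log2 fold change was -0.075, against 0.028 over all features tested. The next gene upstream of Ptprn is Resp18, another protein of the secretory granule whose sequence resembles the luminal part of Ptprn in mammals, with its start 13.9 kb away. Resp18 was 1177, 908 and 948 in LINE-1a 1, 2 and 3, against 774, 764 and 563 in dCas 1, 2 and 3, without overlap (log2 fold change 0.53 ± 0.18, limma adjusted p = 0.325). On the other side, Dnajb2, a chaperone of neurons, had a log2 fold change of -0.26 and overlapped between the groups. Tuba4a, an α-tubulin, was 12718, 6231 and 9465 in LINE-1a, against 13928, 17463 and 15019 in dCas libraries, without overlap and below 0 (log2 fold change -0.76 ± 0.26). The annotation places an antisense gene, Gm28294, over Ptprn, and without stated strand in the counting, reads of the pair cannot be told apart.

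**Figure D2:**
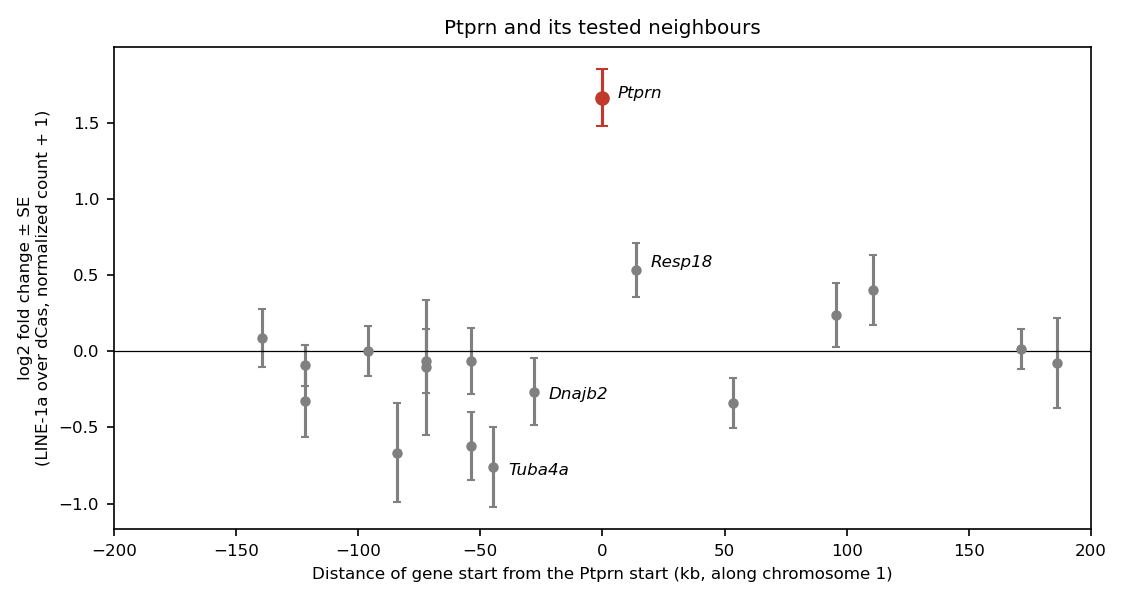
Log2 fold change (LINE-1a over dCas, ± SE) of Ptprn, in red, and of the 17 tested genes that start within 200 kb, in gray, against the distance of their starts from that of Ptprn. Ptprn is at 1.66, while the neighbours run from -0.76 (Tuba4a) to 0.53 (Resp18).

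Ptprn2 (chr12:116485720-117276849, plus strand) did not pass the threshold. It stood at 2331, 3844 and 3845 normalized counts in LINE-1a 1, 2 and 3, against 2606, 2292 and 1771 in dCas 1, 2 and 3. LINE-1a 2 and LINE-1a 3 were above all dCas libraries, and LINE-1a 1 was within their range. The log2 fold change was 0.57 ± 0.23. Ptprn2 spans 791130 bases, and genes of over 200 kb ran high in the same libraries: over 978 tested genes, the median log2 deviation from the dCas mean was 0.024, 0.45 and 0.32 in LINE-1a 1, 2 and 3 and 0.19, 0.0048 and -0.19 in dCas 1, 2 and 3. With the trend in span and GC of each library removed, an alternative added after the data were seen, the log2 fold change of Ptprn2 was 0.27 and that of Ptprn, which spans 17476 bases, 1.62. Per kb of exon, Ptprn was 4.85, 1.95 and 2.52 times Ptprn2 in LINE-1a libraries, against 0.990, 1.504 and 1.63 times in dCas libraries.

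The remaining members could be put in 2 sets of 4, grouped after their values were seen. Chga, Chgb, Scg2 and Pcsk1 had log2 fold changes from -0.81 to -0.60, and Scg3, Scg5, Pcsk2 and Cpe from -0.18 to 0.13. None of the 9 genes other than Ptprn passed an adjusted p of 0.05 in limma, edgeR or DESeq2, while 4 were at an unadjusted p under 0.05 in limma (Ptprn2, Chga, Chgb and Scg2), 2 in edgeR and 3 in DESeq2. At that unadjusted threshold edgeR put 14.5% of all features, DESeq2 15.9% and limma 7.94% higher and 7.35% lower, and of these 4 genes Ptprn2 was higher and the others lower. With a weight per library in limma, Ptprn2 and Scg2 passed the adjusted threshold as well, in a fit that called 7.72% of all features. In bulk tissue, fewer cells of a type and less RNA per cell cannot be told apart. Of the 10 genes, 3 did not overlap between the groups (Ptprn higher, Chgb and Scg2 lower), where 22.1% of all features tested did not (9.88% higher, 12.3% lower).

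Chgb, the granin with the highest level per kb, was 17014, 6393 and 13252 in LINE-1a 1, 2 and 3, against 21091, 17910 and 20710 in dCas 1, 2 and 3. LINE-1a 1 lay just under the lowest dCas library, LINE-1a 3 further below and LINE-1a 2 lowest, so the groups did not overlap. The means were 12220 ± 5386 in LINE-1a and 19904 ± 1737 in dCas vermis (log2 fold change -0.81 ± 0.33). Scg2, the precursor of secretoneurin, was 3289, 1688 and 2267 in LINE-1a libraries, against 3730, 3464 and 3927 in dCas libraries. Here too the groups did not overlap, with LINE-1a 2 lowest (log2 fold change -0.67 ± 0.22).

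Chga, the first granin described, was 4507, 2025 and 3563 in LINE-1a libraries, against 4269, 5140 and 5136 in dCas libraries. LINE-1a 1 was above dCas 1, so the groups overlapped (log2 fold change -0.60 ± 0.27). Pcsk1, the convertase that acts early in the secretory pathway, was the rarest of the 10 genes, at 359, 133 and 243 in LINE-1a libraries, against 371, 294 and 404 in dCas libraries. Its lowest value rested on 165 reads, with an exact 95% Poisson interval of 141 to 192 reads, which covers counting error only. LINE-1a 1 lay within the dCas range and LINE-1a 2 and LINE-1a 3 below it (log2 fold change -0.64 ± 0.32).

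In all 4 of these genes LINE-1a 2 was lowest and LINE-1a 3 next. Their log2 deviations from the dCas mean ran from -0.22 to 0.024 in LINE-1a 1, from -1.63 to -1.13 in LINE-1a 2 and from -0.71 to -0.44 in LINE-1a 3. Without LINE-1a 2 the log2 fold changes were -0.27 for Chga, -0.40 for Chgb, -0.44 for Scg2 and -0.26 for Pcsk1. Several lists of cell type markers had their lowest medians in LINE-1a 2 and LINE-1a 3 as well. The 7 astrocyte and Bergmann glia markers in the table, all with a log2 fold change below 0, had median deviations of -0.010, -1.401 and -0.47 in LINE-1a 1, 2 and 3 and sums of 33781 to 83224 in LINE-1a and 75746 to 93562 in dCas libraries. Of these 7, Hopx (1187) was highest and Gdf10 (592) was not the lowest in LINE-1a 2. The 8 oligodendrocyte markers, also all below 0, had medians of -0.025, -1.16 and -0.58 and sums of 124220 to 285223 in LINE-1a and 266995 to 352586 in dCas libraries, and none of these markers was at 0 in any library. Endothelial and mural markers had medians of 0.076, -0.69 and -0.44 in LINE-1a 1, 2 and 3, and oligodendrocyte precursor markers of -0.13, -0.78 and -0.46. Among neurons, the medians were -0.24, -0.24 and -0.59 for Purkinje cells and 0.030, -0.50 and -0.28 for unipolar brush cells and nuclear neurons. They were -0.032, 0.058 and -0.074 for granule cells and -0.13, 0.025 and -0.22 for inhibitory interneurons, neither lowest in LINE-1a 2. Brainstem and monoaminergic markers had medians of 0.36, -0.49 and -0.58, and meningeal markers of 0.33, 0.039 and -0.18. Microglia markers had medians of 0.38, 0.034 and 0.17, with 6 of 8 above 0. The part of these cell types in the values of the 4 genes was not tested.

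**Figure D3:**
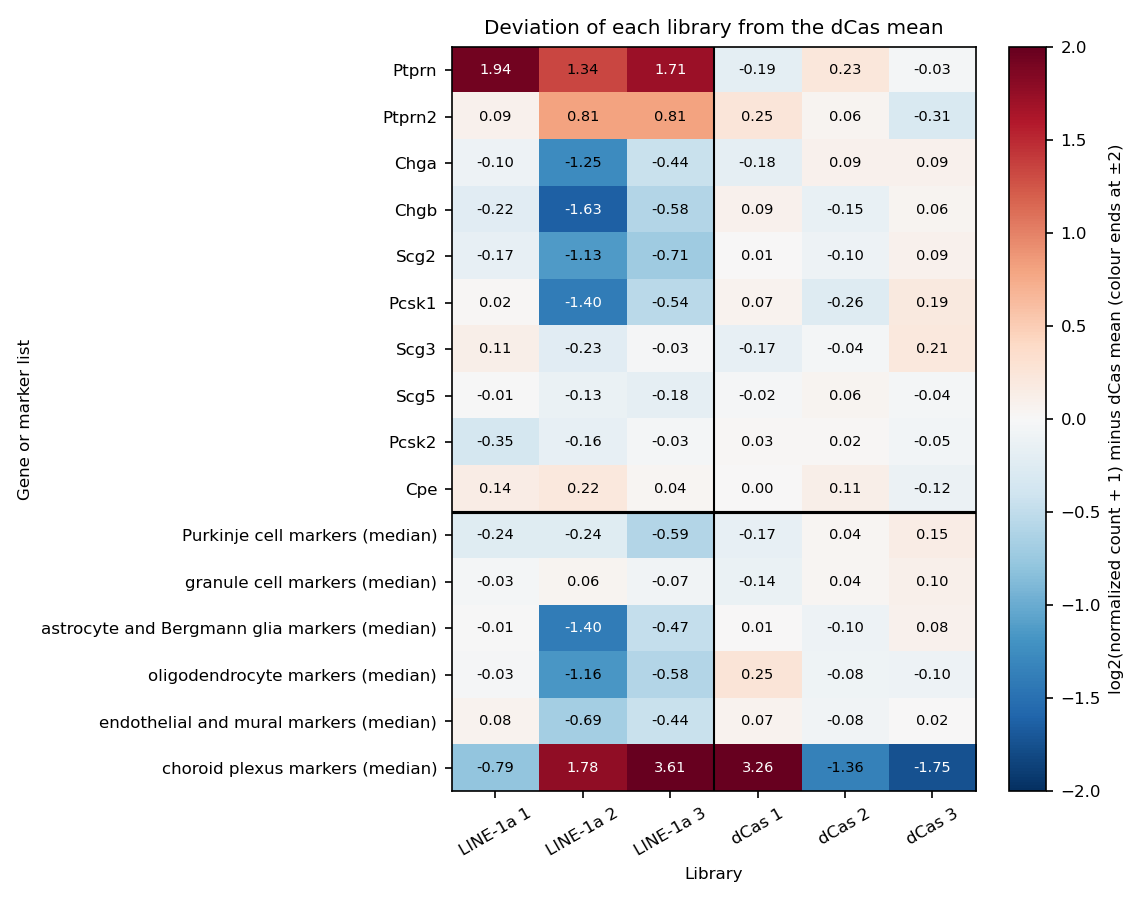
Deviation of each library from the dCas mean, in log2(normalized count + 1), for the 10 genes (above the black line) and for the median of 6 lists of cell type markers (below it), with LINE-1a libraries left of dCas libraries. Ptprn is at 1.34 to 1.94 in the 3 LINE-1a libraries, and Chga, Chgb, Scg2 and Pcsk1 are lowest in LINE-1a 2, at -1.63 to -1.13, the library in which the median of astrocyte markers is -1.401, of oligodendrocyte markers -1.16 and of granule cell markers 0.06.

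The 300 bases around the start of each gene (250 before and 50 after) were searched on both strands for TGACGTCA, the full cAMP response element, a palindrome bound by CREB, because several granin genes are known targets of cAMP signalling. RefSeq promoters of GRCm38.p6 were at hand for 9 of the 10 genes. The element was found once each in Chgb, Scg2 and Pcsk1, with its first base at -72, -68 and -78 from the start. Over all promoters of the table, 588 of 32851 (1.79%) held it. The 150 bases before the start are shown for these 3 genes, with the element in capitals, and for Chga and Ptprn, in which this exact run was not in the window. They lie at chr2:132781492-132781641 (plus strand), chr1:79440027-79440176 (minus), chr13:75089707-75089856 (plus), chr12:102554791-102554940 (plus) and chr1:75264209-75264358 (minus), and read 5′ to 3′ on the strand of the gene.
Chgb: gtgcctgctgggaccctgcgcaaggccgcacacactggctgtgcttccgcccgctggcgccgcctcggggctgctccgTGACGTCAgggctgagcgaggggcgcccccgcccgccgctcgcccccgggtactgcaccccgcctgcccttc
Scg2: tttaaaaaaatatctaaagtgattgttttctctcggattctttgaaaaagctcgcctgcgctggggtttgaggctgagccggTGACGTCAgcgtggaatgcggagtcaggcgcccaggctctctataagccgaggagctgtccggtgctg
Pcsk1: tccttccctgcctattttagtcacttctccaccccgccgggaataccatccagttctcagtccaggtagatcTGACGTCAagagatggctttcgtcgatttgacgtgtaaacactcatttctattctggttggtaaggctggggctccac
Chga: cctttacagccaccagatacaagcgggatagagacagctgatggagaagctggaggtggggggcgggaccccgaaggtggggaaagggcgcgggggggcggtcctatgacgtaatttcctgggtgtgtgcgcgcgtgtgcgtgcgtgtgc
Ptprn: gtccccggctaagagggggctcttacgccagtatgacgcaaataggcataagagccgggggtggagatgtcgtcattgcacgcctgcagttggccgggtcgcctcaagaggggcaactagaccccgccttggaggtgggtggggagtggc
Only exact matches were counted and put in capitals. The Chga stretch holds the near match tgacgtaa, and the Ptprn stretch holds the partial runs tgacg and cgtca. A match of letters is no evidence of binding. Among the 11922 tested genes with a promoter in the table, 397 (3.33%) held the element, and their median log2 fold change was -0.0040, against 0.028 over all features tested.

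Scg3, Scg5, Pcsk2 and Cpe all overlapped between the groups. Scg3, a granin that binds Chga and cholesterol at the granule membrane, was 5675, 4472 and 5157 in LINE-1a 1, 2 and 3, against 4675, 5127 and 6072 in dCas 1, 2 and 3 (log2 fold change -0.051 ± 0.17). Scg5 was 8418, 7753 and 7477 in LINE-1a libraries, against 8356, 8855 and 8285 in dCas libraries (-0.11 ± 0.16). Both turned above 0 after scaling all libraries to equal totals, at 0.068 and 0.0091. That scaling raised the median of all features by 0.12.

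Pcsk2, the main convertase of neuropeptide precursors in brain, was 3750, 4287 and 4684 in LINE-1a libraries, against 4876, 4874 and 4627 in dCas libraries. LINE-1a 3 lay above dCas 3, and the log2 fold change was -0.18 ± 0.15, with -0.40 when the trend in span and GC was removed, -0.097 without LINE-1a 1, -0.063 with equal totals and -0.033 with sex as a covariate. Cpe was 5713, 6010 and 5321 in LINE-1a libraries, against 5179, 5603 and 4779 in dCas libraries, with overlap (0.13 ± 0.15), or 0.25 with equal totals and 0.040 with sex as a covariate. Over these 4 genes and all 6 libraries, the farthest log2 deviation from the dCas mean was -0.35, of Pcsk2 in LINE-1a 1. Per kb of exon, Pcsk2 was 7.40, 22.8 and 13.6 times Pcsk1 in LINE-1a libraries, against 9.32, 11.7 and 8.11 times in dCas libraries, with LINE-1a 2 highest.

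The members were also compared in how they varied over the 6 libraries, by the root-mean-square difference of their log2 values after centring each on its own mean. Of 45 pairs, the 6 pairs within Chga, Chgb, Scg2 and Pcsk1 differed by 0.13 to 0.204 and the 6 pairs within Scg3, Scg5, Pcsk2 and Cpe by 0.14 to 0.229. The other 33 pairs differed by 0.356 to 1.28. Both sets had been formed from these same values, so the gap between the ranges follows from the grouping and supports nothing. Chgb and Pcsk1 were the closest pair, and Chgb and Ptprn the farthest, at 1.28. Against Ptprn, the nearest member was Ptprn2, at 0.71. Over the whole table, the genes nearest to Ptprn among 12943 with a mean of at least 50 included Tnfaip8l1 (0.184), Slc14a1 (0.235), a urea transporter, B3glct (0.239), which adds glucose to O-linked fucose, and Srebf1 (0.254), a regulator of lipid synthesis. These 4 were higher in LINE-1a libraries without overlap, with log2 fold changes between 1.397 and 1.69, the contrast by which Ptprn had been singled out.

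Levels can be compared between genes per kb of exon. In LINE-1a vermis the order was Scg5 (5024 ± 308 normalized counts per kb), Chgb (4460 ± 1966), Cpe (2178 ± 133), Scg3 (1863 ± 221), Chga (1221 ± 455), Ptprn (1103 ± 223), Scg2 (960 ± 322), Pcsk2 (536 ± 59.2), Ptprn2 (388 ± 102) and Pcsk1 (43.7 ± 20.2). In dCas vermis it was Chgb (7264 ± 634), Scg5 (5417 ± 198), Cpe (1988 ± 158), Scg3 (1933 ± 260), Chga (1759 ± 182), Scg2 (1474 ± 92.4), Pcsk2 (606 ± 18.1), Ptprn (345 ± 51.2), Ptprn2 (258 ± 49.1) and Pcsk1 (63.6 ± 10.04). Ptprn thus ranked 6th in LINE-1a and 8th in dCas vermis, at percentile 94.8 and 79.1 of 15213 tested genes. Neighbours in the order whose libraries overlapped were, in LINE-1a vermis, Scg5 and Chgb, Cpe and Scg3, Scg3 and Chga, Chga and Ptprn, and Ptprn and Scg2. In dCas vermis they were Cpe and Scg3, Scg3 and Chga, Chga and Scg2, and Ptprn and Ptprn2. Exon lengths are the union of all annotated transcripts, 8602 bases for Ptprn2 and 4249 for Ptprn, and levels per kb depend on that choice.

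**Figure D4:**
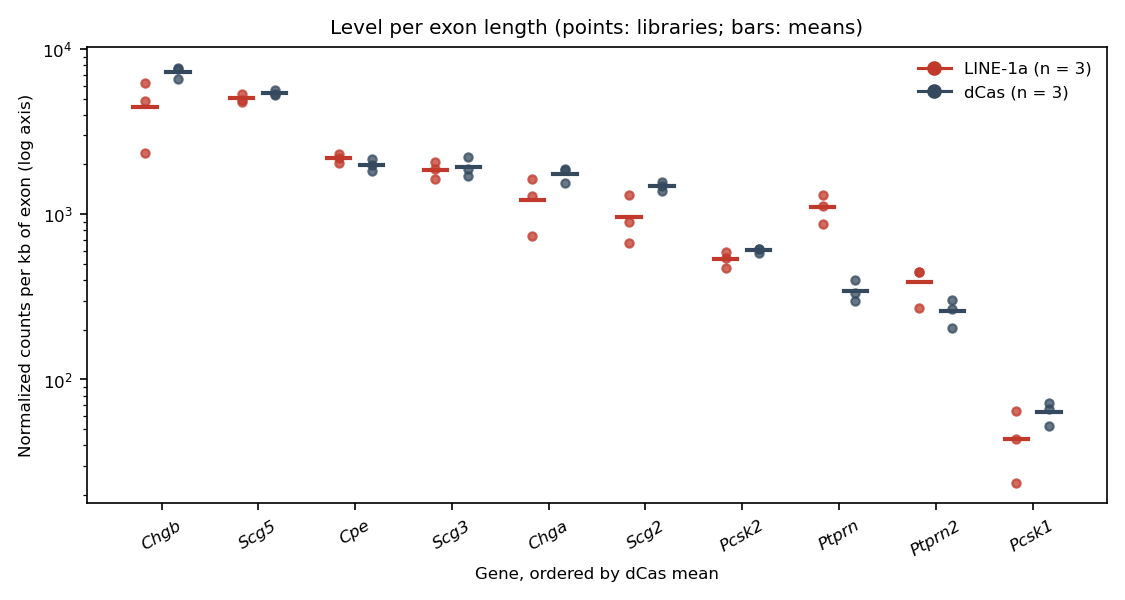
Normalized counts per kb of exon (log axis) for the 10 genes, ordered by the dCas mean, with LINE-1a libraries in red left of dCas libraries in dark blue; points are libraries and bars are means (n = 3 each). Ptprn stands at about 1103 in LINE-1a and 345 in dCas vermis, while Pcsk1 is lowest in both groups.

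Around these 10 genes, 6 lists held 135 further tested genes, of the same pathway or of the phosphatase family of Ptprn. By log2 fold change, 64 lay above 0 and 71 below. The phosphatase family, listed by sequence, gave 19 of the 135, with 14 above 0 and 5 below. By limma 0 of the 135 passed an adjusted p of 0.05, and 21 (15.6%) were at an unadjusted p under 0.05, against 15.3% of all features. The edgeR test called 0 of them, with 20 (14.8%) at an unadjusted p under 0.05, against 14.5% of all features. With a weight per library limma called 15 (11.1%; 6 higher, 9 lower), against 7.72% of all features. DESeq2 called 3 (Syt6 and Npy higher, Edn3 lower), where it called 0.88% of all features. It put 28 of the 135 at an unadjusted p under 0.05 (11 higher, 17 lower), against 15.9% of all features. The groups did not overlap in 31 of the 135 (10 higher, 21 lower; 23%), against 22.1% of all features.

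Of 8 other granins and proteins of the secretory lumen, 3 lay above 0 and 5 below (median log2 fold change -0.12). Besides Resp18, Clstn3 stood out by size. It is a synaptic adhesion protein (calsyntenin-3) rather than a granin, and was 16991, 4315 and 13312 in LINE-1a libraries, against 21220, 23466 and 25117 in dCas libraries, lowest in LINE-1a 2 as Chgb was (log2 fold change -1.23 ± 0.43). Npdc1, a neural membrane protein, was at 966 to 1111 in LINE-1a and 711 to 945 in dCas libraries (0.28 ± 0.16). Vgf, a granin cut into many peptides, was low, at 24.2 to 38.8 in LINE-1a and 24.7 to 62.0 in dCas libraries. Pcsk1n (proSAAS), an inhibitor of Pcsk1, was at 157 to 257 in LINE-1a and 112 to 208 in dCas libraries, and both genes overlapped between the groups.

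Of 15 other processing enzymes tested, 5 lay above 0 and 10 below, with a median of -0.14. Ctsl, cathepsin L, which also cuts prohormones, was 4283, 2647 and 3228 in LINE-1a libraries, against 4721, 4718 and 4717 in dCas libraries, without overlap (log2 fold change -0.51 ± 0.19). Cpd, a carboxypeptidase of the trans-Golgi network related to Cpe, was 1092, 1232 and 1142 in LINE-1a libraries, against 1079, 896 and 699 in dCas libraries, above the dCas range by a small margin (0.39 ± 0.18). Mbtps1, the site-1 protease, was at 1390 to 2761 in LINE-1a and 2590 to 3528 in dCas libraries (-0.52 ± 0.25). Pam, which amidates the ends of peptides, was at 1357 to 1896 in LINE-1a and 1437 to 1594 in dCas libraries (0.055 ± 0.16).

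The 27 tested genes of vesicle biogenesis and maturation divided evenly, 14 above 0 and 13 below, with a median of 0.0087. Vps54, a subunit of the GARP tethering complex, was 690, 1126 and 942 in LINE-1a libraries, against 708, 571 and 479 in dCas libraries, with overlap through LINE-1a 1 (0.64 ± 0.21). Atp6ap2 and Atp6v0a1, parts of the proton pump that acidifies the vesicle, had log2 fold changes of -0.51 ± 0.21 and -0.59 ± 0.24 and did not overlap between the groups. Hid1, needed for granule formation at the trans-Golgi network, was at 1474 to 3384 in LINE-1a and 2763 to 3975 in dCas libraries, again lowest in LINE-1a 2.

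Of 41 genes of vesicle transport and release, 18 lay above 0 and 23 below, with a median of -0.15. Syt6, a synaptotagmin, had the smallest p of the 135 genes. It was 542, 682 and 476 in LINE-1a libraries, against 366, 279 and 226 in dCas libraries, without overlap (0.97 ± 0.22, limma adjusted p = 0.279). Syt10, a calcium sensor for release of Igf1 in olfactory bulb neurons of mice, had a log2 fold change of -0.51 ± 0.19 without overlap, and Syt5 one of -1.07 ± 0.41 with overlap. Cadps and Cadps2 (CAPS1 and CAPS2), which prime dense-core vesicles, had log2 fold changes of 0.34 ± 0.21 and 0.58 ± 0.24. Cadps2, which is abundant in granule cells, was 6440, 11118 and 10633 in LINE-1a libraries, against 7006, 6518 and 5026 in dCas libraries, high in LINE-1a 2 and LINE-1a 3 as Ptprn2 was.

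Of 38 listed neuropeptides and other cargo proteins, 25 passed the filter, 10 above 0 and 15 below, with a median of -0.10. Edn3, endothelin 3, was 210, 152 and 150 in LINE-1a libraries, against 264, 341 and 305 in dCas libraries, without overlap (-0.84 ± 0.20). Npy, neuropeptide Y, was 1101, 1318 and 732 in LINE-1a libraries, against 523, 664 and 531 in dCas libraries, also without overlap (0.84 ± 0.22). Agt, the angiotensin precursor, which astrocytes make, was 4280, 1904 and 3124 in LINE-1a libraries, against 4763, 4684 and 5783 in dCas libraries, without overlap and lowest in LINE-1a 2 (-0.78 ± 0.27). Bdnf, a trophic factor of this pathway, was at 463 to 581 in LINE-1a and 475 to 666 in dCas libraries (-0.20 ± 0.18).

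Of 19 other receptor-type protein tyrosine phosphatases, the family to which Ptprn and Ptprn2 belong by sequence, 14 lay above 0 and 5 below, with a median of 0.21, or 0.096 with the trend in span and GC removed. Ptprs, a receptor for proteoglycans, was 1579, 2350 and 2055 in LINE-1a libraries, against 1252, 1438 and 1345 in dCas libraries, without overlap (0.55 ± 0.17). Ptprt was 2455, 3114 and 2474 in LINE-1a libraries, against 2047, 1983 and 1404 in dCas libraries, also without overlap (0.58 ± 0.18). Ptprj overlapped (0.56 ± 0.21). The log2 fold change of Ptprn, at 1.66, lay above that of every gene of the 6 lists, of which Syt6 was the highest at 0.97. Ptprn had been chosen by this contrast, so its place above them supports nothing.

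**Figure D5:**
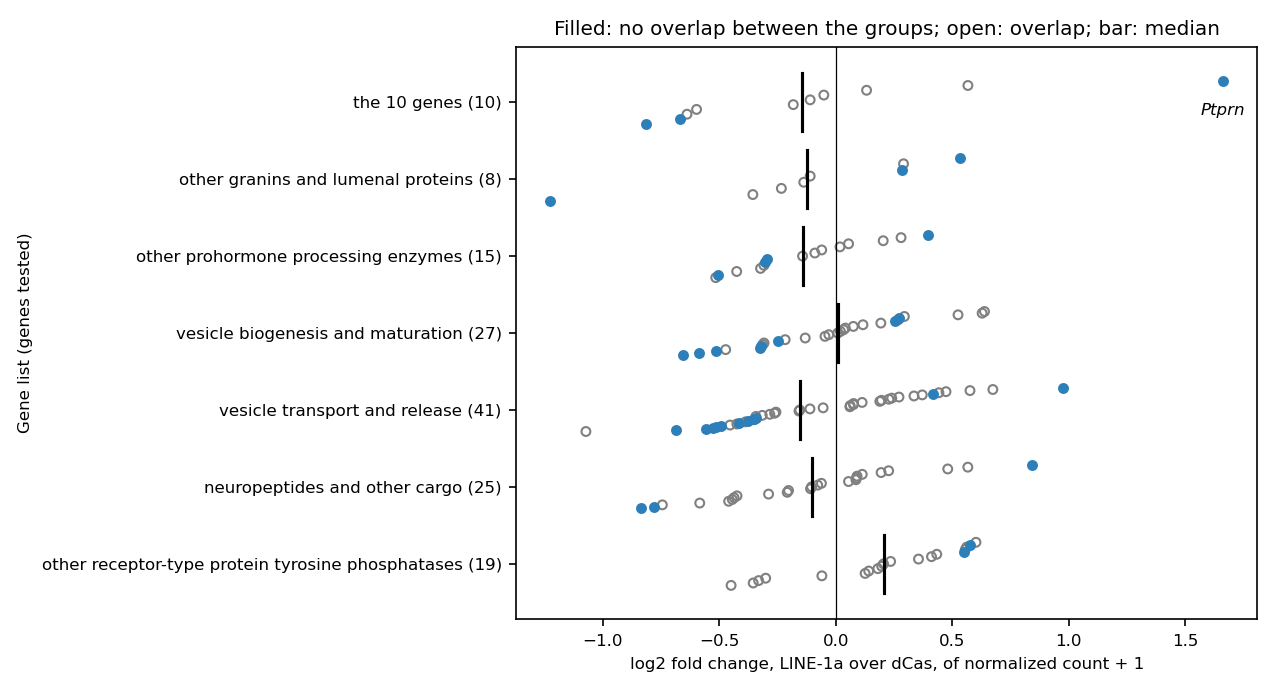
Log2 fold change, LINE-1a over dCas, of each tested gene of the 10 and of 6 lists, of the same pathway or of the phosphatase family of Ptprn. Filled points did not overlap between the groups, open points did, and black bars are medians. Ptprn, at 1.66, the gene chosen by this contrast, stands to the right of all other points, and the medians of the 6 lists run from -0.15 to 0.21.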

How the data were processed

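Total RNA of the vermis was made into libraries with an NEBNext Ultra II kit, per the labels' protocols. Per the submitters' processing notes, which give no roles, the tools were DESeq2, SAMtools 1.9, bedtools 2.27.1, Bowtie2 2.2.9 and STAR 2.5.3a, and the builds mm10 and GRCm38. The counter, its annotation and whether it used strand were not given in the sources at hand. The authors deposited normalized counts, a signal in which the reads of each gene are divided by 1 size factor per library. All values (100%) came out as whole reads within 0.001 reads, so reads per gene and depth could be recovered.

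Features with a mean of at least 10 normalized counts (15800) were tested with limma 3.58.1 (R 4.3.3) on log2(normalized count + 1) with a trended variance, group as the only term, and Benjamini-Hochberg adjustment over all features at a threshold of 0.05. The recovered reads were also tested with edgeR 4.0.16 (quasi-likelihood) and DESeq2 1.42.0. The steps were tested on simulated data. Nothing says that replicates came from separate litters, so the p-values cover only the spread among these samples, which may be technical. Positions and exon lengths come from GENCODE M21 (GRCm38), and promoters from RefSeq (GRCm38.p6).

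The members and all lists were chosen with earlier results of these data known. Of each list, genes past the threshold were named, or else the 3 of smallest p with a mean of at least 50, beside genes always named (Resp18, Vgf, Pcsk1n, Pam, Cadps, Cadps2, Hid1, Bdnf, Ptprs). Hdac4, Dnajb2 and Stk16 were named after their values were seen. In all, 19 alternatives were run. Of the 5 genes nearest to Ptprn, 1 is not reported here. Protein sequences were not used here.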

Additional observations from a re-analysis of the deposited data

How the results depend on the processing

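Of 190 log2 fold changes of the 10 genes under 19 alternatives, 182 kept their direction and their side of the threshold. Ptprn stayed above 0 in all 19 and past the threshold in 17, with values from 1.53 to 1.83. Ptprn2 (0.66) and Scg2 (-0.61) passed with a weight per library. Scg3 turned above 0 with equal totals (0.068), without LINE-1a replicate 2 (0.041) and without dCas replicate 3 (0.052), within a range of -0.14 to 0.052 with 1 replicate left out, and Scg5 with equal totals (0.0091). The number of the 10 genes past the threshold was 3 with library weights, 0 with sex as a covariate, and 0 to 1 with 1 replicate left out, at 0 without LINE-1a 3. Over all features, 21 were called higher and 2 lower. Higher calls numbered 34 with equal totals, 722 with library weights, 2 with sex as a covariate, 99 with DESeq2, and 7 to 34 with 1 replicate left out. Lower calls numbered 4 without a filter, 1 at a mean of at least 50, 498 with library weights, 1 with sex as a covariate, 40 with DESeq2, 4 with the trend in span and GC removed (added after seeing the data), and 0 to 6 with 1 replicate left out. The cause was not tested. Deviations of same-numbered libraries from their group means had correlations of -0.214, 0.139 and -0.0949, and the main fit did not pair them. With 3 libraries a group, such correlations cannot tell whether same-numbered libraries shared a litter or a batch. The labels do not say. With the replicate block, 24 features were called, 18 of them shared with the 23, and Ptprn kept its call (log2 fold change 1.66, limma adjusted p = 0.0232). Depth limits Pcsk1 most, and 3 libraries a group limit small changes. In simulated data 1.54% of 1.5-fold, 33.3% of 2-fold and 96.9% of 4-fold changes were recovered. Of 15482 unchanged features, 6 were called. The simulated noise was drawn separately for each gene, without the variation that genes share within a library here.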
